A study of Mus musculus with 12 samples.

Results

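The 9 genes described here encode transcription factors of the oligodendrocyte lineage. The list was set by gene name, with no threshold on a measured value, although earlier results of these data were known when it was chosen. It holds Olig1, Olig2, Sox8, Sox9, Sox10, Nkx2-2, Nkx6-2, Myrf and Tcf7l2, of 55536 genes in the deposited tables. All 9 passed the filter on low counts, at least 10 counts in at least 4 libraries, which 17919 genes passed. They were followed in cultures of oligodendrocyte precursor cells (OPCs) of the mouse, which divide and can mature into myelin-forming oligodendrocytes, profiled by ribosome-depleted total RNA-seq. The comparison addresses how an inflammatory cytokine and a glucocorticoid alter OPCs, here at the level of the factors that hold their identity.

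Cultures were made from pooled brains of mouse pups at postnatal days 4 to 6 and were grown with PDGFaa and bFGF. Ctr-OPCs were left untreated, Dexa-treated OPCs received 1 µM of the synthetic glucocorticoid dexamethasone for 48 h, and IFN-γ-treated OPCs received 100 ng/ml of IFN-γ for 48 h. Each group had 4 replicates from different litters. The mice carry Cre under the control of Sox10 and an EGFP reporter switched on by it, and cells were isolated by that reporter or with beads against CD140a, the PDGF receptor α. Which way was used for which library is not given in the labels. Control of Sox10, a member of the list, thus drives the Cre that switches on the reporter. Since any library may have been sorted by this reporter, the presence of Sox10 in the cells is not taken as a finding. All labels also carry the tag EAE as mouse model, while their protocols describe cultures from pups. In such bulk libraries, fewer cells of one type and less RNA per cell cannot be told apart.

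OLIG1 and OLIG2 are basic helix-loop-helix factors that start the lineage and stay on in it. SOX9 acts early, in glial progenitors, and gives way to SOX8 and SOX10, which belong with it to the SoxE group and bind like DNA sequences. NKX2-2 and NKX6-2 are homeodomain factors of ventral progenitors and differentiating oligodendrocytes, TCF7L2 is a partner of β-catenin that appears as OPCs differentiate, and MYRF is a membrane-bound factor that, once cleaved, switches on myelin genes together with SOX10.

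The 11 complete libraries held 19209059 to 52074655 reads in genes. The table of Dexa replicate 3 listed 33.7% of the transcripts, which include all those of Sox9 and Sox10 and of no other member, and this library was left out wherever all genes were fitted. Libraries of replicate 1 stood apart in every group: Sox10, Myrf and Olig2 were lowest there and Nkx6-2 was highest, so that calls are also given without this replicate, a choice made after seeing the data. The treatments left their known marks: Irf1, which responds to interferon, rose in IFN-γ-treated OPCs, and Fkbp5 and Per1, which respond to glucocorticoids, rose in Dexa-treated OPCs. The OPC marker Pdgfra measured 566 to 3430 CPM, that is, counts scaled to the size of the library, over the 11 libraries. The summed CPM of 8 microglia markers was 0.516 to 1.53, that of 5 endothelial and mural markers 1.75 to 5.42, that of 4 fibroblast markers 0.326 to 6.93 and that of 6 neuron markers 18.4 to 32.6. The 8 astrocyte markers summed to 570.5 to 1526 CPM in Ctr-OPCs, 1176 to 1975 in Dexa-treated and 1063 to 1590 in IFN-γ-treated OPCs, with Slc1a3 at 251 CPM or more in every library. Gfap, the defining astrocyte filament, measured 0.124 to 1.21 CPM in Ctr-OPCs, 1.03 to 4.31 in Dexa-treated and 5.19 to 11.7 in IFN-γ-treated OPCs. Other markers of this list were higher in Ctr-OPCs, such as Aldoc at 156 to 416 CPM and Aldh1l1 at 20.7 to 103 CPM. Under IFN-γ, 1 of 4 tested neuron markers rose and 1 fell, 1 of 4 fibroblast markers rose and 1 fell, 1 of 4 endothelial and mural markers fell, and neither of the 2 microglia markers that could be tested was called.

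Levels of different genes were compared per transcript length, in TPM, which corrects counts for transcript length and library size. Olig1 was the most abundant member in Ctr-OPCs, at 315 ± 41.8 TPM (SD, n = 4), above 99.0% of the 10995 protein-coding genes that reached 1 TPM. Sox10 followed at 120.1 ± 54.2 TPM, Olig2 at 115 ± 18.9 TPM and Sox8 at 106 ± 30.7 TPM. The ranges of these last 3 genes overlapped, while every Ctr library had Olig1 above Sox10 and Sox8 above Nkx2-2. The factors with restricted timing were lower: Nkx2-2 measured 13.9 ± 4.92 TPM, Sox9 6.83 ± 1.66 TPM, Tcf7l2 5.93 ± 3.05 TPM and Myrf 3.33 ± 2.52 TPM. Neighbours among these 4 genes overlapped in range. Nkx6-2 was lowest at 0.209 ± 0.168 TPM, backed by 9 to 45 reads per Ctr library, which leaves its changes poorly measured. On average 75.3% ± 18.6 of its Ctr reads were assigned to Nkx6-2-201, a form annotated for nonsense-mediated decay. The coding form Nkx6-2-202 took 24.7% ± 18.6 (SD, n = 4), so the level of this gene was read mostly from a form not annotated as coding.

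**Figure D1:**
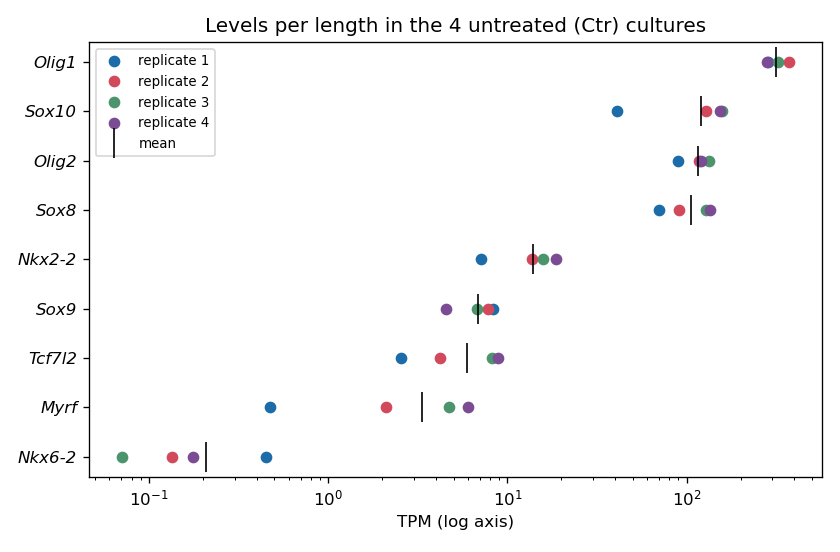
Level of each member in the 4 Ctr-OPC libraries, in TPM on a log axis, with a point per replicate and a bar at the mean. Olig1 lies above the other members in all 4 libraries, Sox10, Olig2 and Sox8 form a group near 100 TPM apart from the low Sox10 point of replicate 1, and Nkx6-2 lies below all others.

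IFN-γ lowered Myrf, Sox8 and Sox10 and raised Sox9, while Olig1, Olig2, Nkx2-2, Nkx6-2 and Tcf7l2 did not pass the test. Thus 4 of 9 members were called, 3 lower and 1 higher, against 31.3% of all genes tested, 15.3% lower and 16.0% higher (edgeR quasi-likelihood test with the replicate number as a block, adjusted p under 0.05). With so wide a response among all genes, the share of members called says little by itself, and it is the size and order of the single changes that are described below. The median log2 fold change of the members was -0.26, and that of all genes -0.012. By size of change, Myrf stood among the lowest 0.776% of all genes tested and Sox8 among the lowest 2.49%, while 88.8% of genes lay below Sox9. In the fit without the block, which leaves differences between replicate numbers inside the error, 1513 genes (8.44%) were called. Sox8 was the only member among them. Of all calls with the block 51.2% were higher, and 80.2% in a limma fit on log2 TPM, which moved the median of all genes to 0.15. The same 4 members were called there in the same directions, beside 25.8% of all genes.

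**Figure D2:**
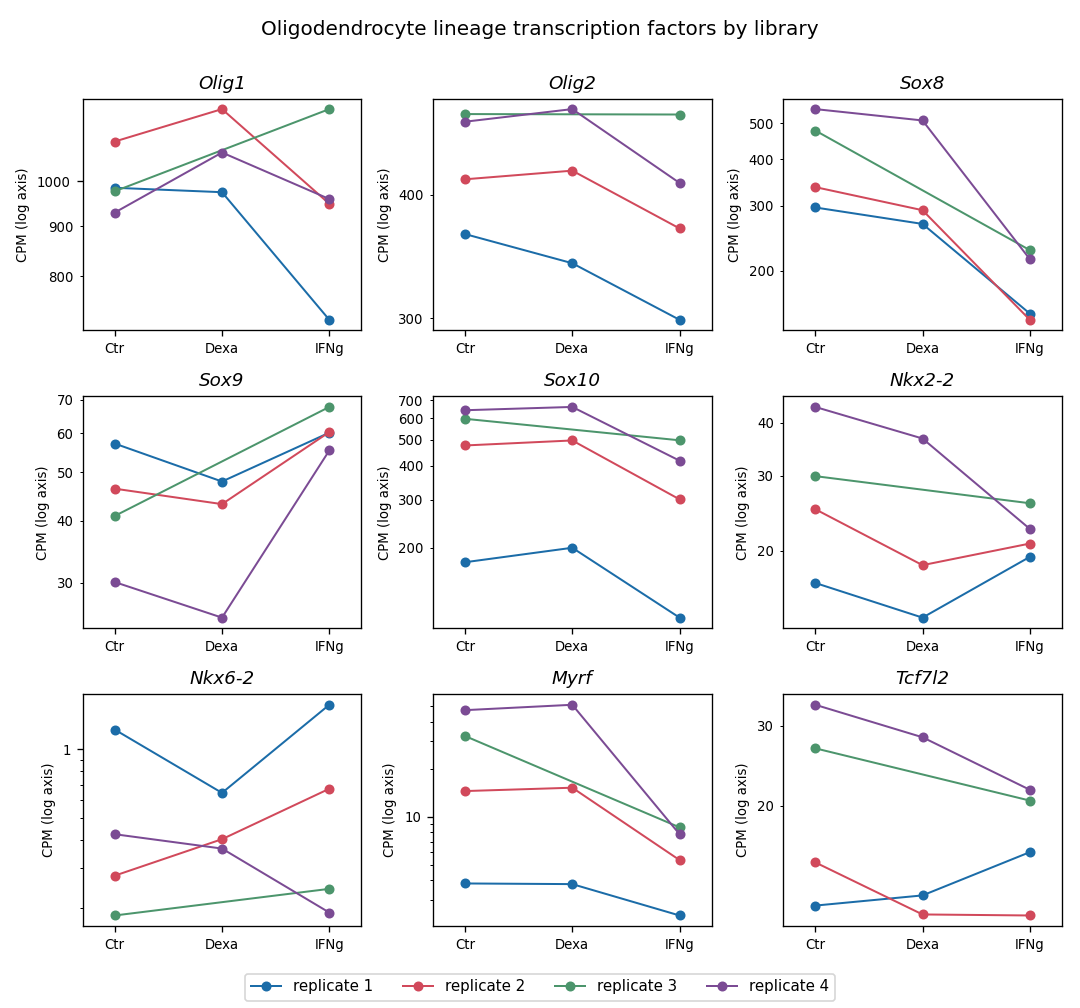
CPM of each member in the 11 complete libraries, on a log axis of its own per gene, with lines joining the libraries of one replicate number. Replicate 3 has no Dexa point because its table was incomplete. Sox8 falls below its Ctr and Dexa values in every IFN-γ library, Myrf and Sox10 are lower with IFN-γ than in the Ctr library of each replicate, from different starting levels, and the IFN-γ values of Sox9 lie close together at 55.4 to 67.7 CPM.

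Among the SoxE genes, Sox8 gave the most even response. The gene lies on the minus strand of GRCm38 chr17:25565892-25570686, and 97.9% of its reads in Ctr-OPCs were assigned to its full transcript Sox8-201. Untreated, replicates 1 to 4 measured 296.5, 336.5, 478 and 546 CPM. Treated with IFN-γ, they measured 153, 148, 227.5 and 215 CPM in the same order. Every IFN-γ library lay below every Ctr library, which 5.44% of all genes tested did in this direction and 14.4% in either. The fitted log2 fold change was -1.14 ± 0.072 (SE, 4 against 4 libraries), a 2.20-fold decrease, with an adjusted p of 1.20e-06 in edgeR's quasi-likelihood test. The decrease held in 4 of 4 replicates, between -0.95 and -1.34, and was -1.19 without replicate 1. It was also called without the block, with adjusted p = 0.0201 in edgeR and 5.01e-04 in DESeq2.

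The Sox8 start is shared with a gene on the other strand. The antisense RNA 2810468N07Rik starts inside the first exon of Sox8 and runs away from it over chr17:25570358-25575043, so that 329 exonic bases, 10.6% of those of Sox8 and 15.5% of those of its partner, belong to both. The sequence before the Sox8 start is shown because it lies within the span of this partner, a gene that fell with Sox8. It is given 5′ to 3′ on the Sox8 strand, from RefSeq on GRCm38.p6, chr17:25570687-25570936, with the E-box letters CANNTG, a motif bound by helix-loop-helix factors such as OLIG2, in capitals.
Sox8: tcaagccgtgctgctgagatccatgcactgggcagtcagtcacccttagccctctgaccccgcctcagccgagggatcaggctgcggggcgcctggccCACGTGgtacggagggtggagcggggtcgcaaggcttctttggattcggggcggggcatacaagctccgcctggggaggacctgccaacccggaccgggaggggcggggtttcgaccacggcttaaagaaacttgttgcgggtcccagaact
The window held 1 such match and a GC content of 65.6%, and 66.2% of 32851 mouse promoter windows of 250 bases held the motif. On either strand it held no match to the interferon-γ activated site TTCNNNGAA, present in 7.02% of windows, to ACAATG, a core bound by SOX factors and present in 10.7%, or to ACANNNTGT, the spaced glucocorticoid receptor motif present in 5.84%.

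2810468N07Rik fell with Sox8. Its level was 40.9, 59.3, 108 and 122 CPM in Ctr-OPCs and 16.9, 24.1, 40.3 and 39.1 CPM in IFN-γ-treated OPCs. The groups did not overlap, although the highest IFN-γ library came close to the lowest Ctr library. The fitted log2 fold change was -1.41 ± 0.067 (edgeR adjusted p = 1.09e-07), and the adjusted p was 0.0682 in edgeR without the block. Reads of 2810468N07Rik equalled 13.8% to 22.6% of the Sox8 reads in Ctr-OPCs and 11.05% to 18.2% in IFN-γ-treated OPCs. The library kit marks strand, but the strand setting used in counting is not given in the sources used here, so reads from the shared bases may have been assigned to either gene.

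Sox10 fell by less, and from levels that differed between replicates. The gene lies on the minus strand of chr15:79154908-79165240, with 89.7% of its Ctr reads on Sox10-201. Ctr-OPC replicates 1 to 4 had 177, 476, 597 and 642 CPM. The treated cultures had 110.5, 301, 497 and 418 CPM. The groups overlapped, since replicate 1 was low in both, yet the IFN-γ library was below the Ctr library of the same replicate in 4 of 4 pairs, by -0.26 to -0.68 on the log2 scale. The fitted log2 fold change was -0.55 ± 0.074, a 1.47-fold decrease (edgeR adjusted p = 2.70e-04), and -0.50 without replicate 1 (adjusted p = 0.00196). Without the block the adjusted p was 0.651, so the call rests on comparing cultures of the same replicate number. Over all 12 libraries and the 6319 genes that could be tested there, the change was -0.56 (adjusted p = 2.06e-04).

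Sox9 moved the other way. The gene, on the plus strand of chr11:112782224-112787760 with a single annotated transcript, measured 57.1, 46.4, 40.9 and 30.1 CPM in Ctr-OPCs. After IFN-γ it measured 60.1, 60.3, 67.7 and 55.4 CPM. The treated libraries thus lay in a narrow band around the highest Ctr value, and the rise was largest in replicate 4, where the Ctr level was lowest, at 0.88 on the log2 scale, and smallest in replicate 1, at 0.072. The fitted log2 fold change was 0.52 ± 0.12, a 1.43-fold increase (edgeR adjusted p = 0.00902), and 0.67 without replicate 1 (adjusted p = 0.00185). The call was lost without the block (adjusted p = 0.240) and without IFN-γ replicate 3 (adjusted p = 0.0520). SOX9 is also made by astrocytes. Of the 8 astrocyte markers, Gfap, Aldoc and Aldh1l1 rose under IFN-γ, S100b, Aqp4 and Gja1 fell, and 2 were not called. Their summed level was 1526, 1251, 570.5 and 887 CPM in Ctr-OPC replicates 1 to 4 and 1590, 1394, 1063 and 1441 CPM in IFN-γ-treated OPCs, higher in 4 of 4 pairs, and its part in the Sox9 result was not tested.

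Within the SoxE group, the makeup therefore shifted. Sox9 made up 6.92%, 3.44%, 2.31% and 1.55% of the summed TPM of Sox8, Sox9 and Sox10 in the Ctr-OPCs, by replicate number. In IFN-γ-treated OPCs it made up 12.2%, 7.75%, 5.48% and 5.18%, more in each of the 4 pairs. The Sox8 share was lower in each pair, at 58.8%, 39.7%, 43.9% and 46.0% in Ctr-OPCs and 51.2%, 30.6%, 30.4% and 32.5% in IFN-γ-treated OPCs. Sox10 held 34.2% to 56.8% and 36.5% to 64.1%, higher in each pair although its own level fell, because Sox8 fell further. These ratios are taken inside each library, so that no scaling between libraries enters them. They restate the genes' own changes and were not tested.

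**Figure D3:**
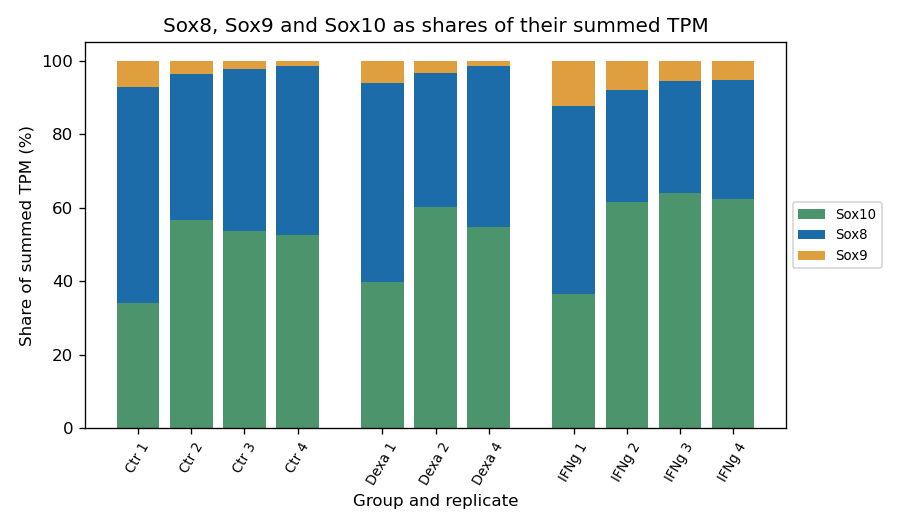
Sox8, Sox9 and Sox10 as shares of their summed TPM, in percent, in each of the 11 complete libraries. The Sox9 segment is largest in IFN-γ replicate 1 at 12.2% and smallest in Dexa replicate 4 at 1.33%, and replicate 1 has the smallest Sox10 share in each group.

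Myrf had the largest change of the 9 members. The gene lies on the minus strand of chr19:10208272-10240748. Replicates 1 to 4 of the Ctr-OPCs had 3.80, 14.6, 32.5 and 47.3 CPM, backed by 140 to 1570 reads. Those of the IFN-γ-treated OPCs had 2.39, 5.34, 8.60 and 7.79 CPM, backed by 79 to 247 reads. The groups overlapped only through Ctr replicate 1, which was below 3 of the 4 treated libraries but above its own. The log2 fold changes of replicates 1 to 4 were -0.66, -1.44, -1.91 and -2.59, in the order of the Ctr levels from which they are computed. The fitted value was -1.76 ± 0.25, a 3.38-fold decrease (edgeR adjusted p = 4.32e-04), and -1.98 without replicate 1 (adjusted p = 1.02e-04). Without the block the adjusted p was 0.204 in edgeR and 0.0592 in DESeq2. Myrf-201, the main coding transcript, took 74.4% ± 2.004 of the reads in Ctr-OPCs and 78.0% ± 3.59 in IFN-γ-treated OPCs (SD, n = 4 each), so that the decrease was read mainly from this form.

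**Figure D4:**
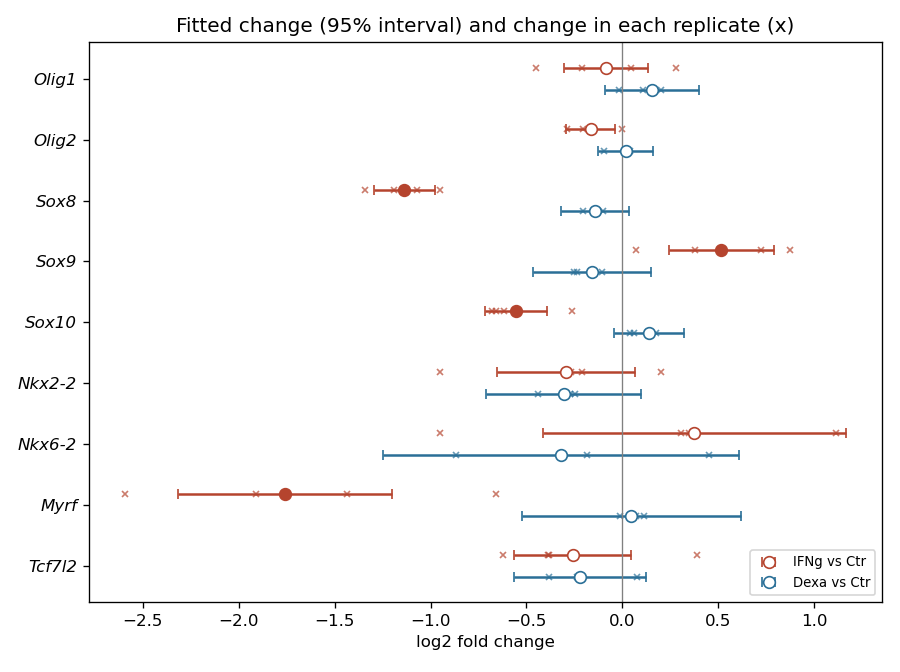
Log2 fold change of each member for IFN-γ-treated against Ctr-OPCs and Dexa-treated against Ctr-OPCs. Circles are fitted values with 95% confidence intervals, filled where the edgeR adjusted p was under 0.05, and crosses are the single replicate pairs. The 4 filled circles, Sox8, Sox9, Sox10 and Myrf, all belong to IFN-γ, and the Myrf crosses spread from -0.66 to -2.59.

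The Olig genes, which are neighbours on chromosome 16, changed little. Olig1 at chr16:91269772-91271933 measured 985, 1098, 977 and 929 CPM in Ctr-OPCs and 722, 949, 1185 and 959 CPM in IFN-γ-treated OPCs. The replicates did not move one way, with IFN-γ lower in 2 pairs and higher in 2. The fitted log2 fold change was -0.083, with a 95% interval of -0.30 to 0.14 (edgeR adjusted p = 0.571), which leaves out a fall as large as that of Sox10. Olig2 at chr16:91225457-91228677 measured 365, 414, 482 and 474 CPM in Ctr-OPCs and 299, 370, 482 and 411 CPM in IFN-γ-treated OPCs. Its fitted log2 fold change was -0.16, with an interval of -0.29 to -0.037 (edgeR adjusted p = 0.0515). This value lay at the threshold, and it crossed it in 6 of the alternative fits.

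The homeodomain factors did not pass the test against Ctr-OPCs. Nkx2-2 on the minus strand of chr2:147177546-147194243 measured 16.8, 25.0, 30.0 and 43.6 CPM in Ctr-OPCs. The values with IFN-γ were 19.3, 20.8, 25.9 and 22.5 CPM. The treated libraries spanned a narrower range inside that of the controls, and the log2 fold change was -0.29 ± 0.16 (edgeR adjusted p = 0.199). In replicates 2 to 4 the IFN-γ library was the lower one, and in replicate 1 the higher. Nkx6-2 on the minus strand of chr7:139579376-139582797 measured 0.186 to 1.22 CPM in Ctr-OPCs and 0.192 to 1.57 CPM in IFN-γ-treated OPCs, and its log2 fold change of 0.38 ± 0.36 had an interval of -0.41 to 1.17 (edgeR adjusted p = 0.466). A change of Nkx6-2 was thus not detectable at this depth.

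The antisense gene at Nkx2-2 did change. Nkx2-2os begins across the last coding exon of Nkx2-2 and extends over chr2:147184083-147331681, sharing 278 exonic bases with it, 9.67% of those of Nkx2-2. Its level was 1.79, 3.12, 4.22 and 4.14 CPM in Ctr-OPCs. With IFN-γ it was 0.544, 1.34, 1.25 and 1.65 CPM, below every Ctr library. The fitted log2 fold change was -1.48 ± 0.15 (edgeR adjusted p = 5.01e-05), and adjusted p was 0.0380 without the block. Reads of Nkx2-2os equalled 9.49% to 14.1% of the Nkx2-2 reads in Ctr-OPCs and 2.81% to 7.33% in IFN-γ-treated OPCs, so that the 2 genes moved unequally. The other genes that overlap members were not called against Ctr-OPCs: Gm15966 at Olig1, 6430503K07Rik at Nkx2-2, Inpp5a at Nkx6-2 and Ppnr at Tcf7l2.

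A sequence of Nkx2-2 is set beside that of Sox8, since both members have an antisense gene that fell. It lies before the start of Nkx2-2-201, the coding transcript that took 83.8% ± 3.80 of the Nkx2-2 reads in Ctr-OPCs (SD, n = 4). The stretch is not upstream of the whole gene: Nkx2-2-202 and Nkx2-2-204, noncoding transcripts with 0.593% and 2.57% of these reads, start farther upstream, and the stretch falls in their intron and stops at their last exon. It is from RefSeq on GRCm38.p6, chr2:147186456-147186652 on the minus strand, 5′ to 3′, with CANNTG in capitals.
Nkx2-2: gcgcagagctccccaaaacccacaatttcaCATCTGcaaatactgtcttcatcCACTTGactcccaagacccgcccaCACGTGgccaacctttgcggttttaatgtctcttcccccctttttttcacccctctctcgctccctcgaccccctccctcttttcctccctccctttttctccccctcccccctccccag
It held 3 matches over 197 bases, and CACGTG, a palindromic form of the motif, occurs in both windows. Windows of Nkx6-2, Olig2 and Tcf7l2 were also in the RefSeq table, so that 5 of 9 members had one. ACAATG occurred once in the window of Olig2 and 2 times in 1 of the 2 windows of Tcf7l2. None of these 6 windows held TTCNNNGAA or ACANNNTGT. These are matches of letters and not measured sites.

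**Figure D5:**
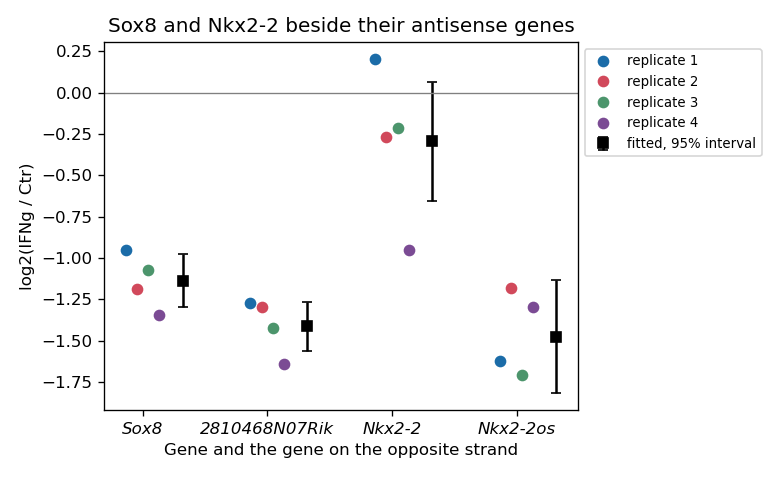
Log2 ratio of IFN-γ-treated to Ctr-OPCs in each replicate for Sox8, Nkx2-2 and the gene on the opposite strand of each, with the fitted value and its 95% interval as a square. All replicates of Sox8, 2810468N07Rik and Nkx2-2os lie between -0.95 and -1.71, while those of Nkx2-2 run from 0.20 to -0.95.

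Tcf7l2 did not pass the test, and was lower with IFN-γ in replicates 2 to 4 and higher in replicate 1. The gene lies on the plus strand of chr19:55741820-55933654. It measured 12.01, 14.97, 26.8 and 33.4 CPM in Ctr-OPCs and 15.8, 11.4, 20.5 and 21.7 CPM in IFN-γ-treated OPCs. The pairs gave log2 fold changes of 0.39, -0.39, -0.38 and -0.62, and the fitted value was -0.26 ± 0.14 (edgeR adjusted p = 0.184). Without replicate 1 the value was -0.45, with an adjusted p of 0.00487, and with replicates 3 and 4 alone, whose sample titles share a prefix, it was -0.48 (adjusted p = 0.0102). Its reads were spread over many of its 22 transcripts, with 24.7% ± 5.46 on Tcf7l2-209 and 17.7% ± 7.43 on Tcf7l2-201 in Ctr-OPCs, so transcript shares were too uneven between replicates to compare.

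Dexamethasone moved none of the 9 members past the test, against 1.57% of all genes tested. The count was also 0 in edgeR without the block (0.123% of all genes called), in DESeq2 with it (2.57%) and in DESeq2 without it (0.547%), and 0 members had an unadjusted p under 0.05 in edgeR with the block. When only the Ctr and Dexa libraries entered the fit, which called 1569 genes or 8.76%, Nkx2-2 at -0.33 and Sox9 at -0.20 passed, both lower in 3 of 3 pairs. Intervals show what could have been missed. For Sox8, at 268, 291.5 and 509 CPM in Dexa-treated OPC replicates 1, 2 and 4, the log2 fold change was -0.14 with a 95% interval of -0.32 to 0.036. For Sox10, at 199.9, 497 and 660 CPM, it was 0.14 with an interval of -0.040 to 0.32, and the Dexa library was the higher one in 3 of 3 pairs by at most 0.18. Myrf measured 3.77, 15.3 and 51.1 CPM, within 0.11 on the log2 scale of the Ctr library of each pair, yet its interval of -0.52 to 0.62 is wide. In Dexa replicate 3, the incomplete table, Sox9 measured 7.65 TPM and Sox10 190 TPM, beside 6.73 and 157 TPM in Ctr replicate 3. Sox9 was thus higher with dexamethasone in this replicate, against its direction in the 3 complete pairs.

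Between the treated groups, the same 4 members were called as against Ctr-OPCs, beside 33.7% of all genes. The IFN-γ libraries are shared by both comparisons, so the values are given side by side and not as a second finding. Relative to Dexa-treated OPCs, the IFN-γ log2 fold change was -0.996 ± 0.080 for Sox8, -0.69 ± 0.083 for Sox10, -1.81 ± 0.28 for Myrf and 0.67 ± 0.14 for Sox9 (edgeR adjusted p = 8.03e-06, 1.29e-04, 7.49e-04 and 0.00425). Sox9 did not overlap between these groups, with 25.6 to 47.9 CPM in Dexa-treated and 55.4 to 67.7 CPM in IFN-γ-treated OPCs, and neither did Sox8. Libraries without overlap made up 20.0% of all genes tested in this comparison. Without the block the adjusted p for Sox8 was 0.0667 in edgeR and 0.0168 in DESeq2, and Sox9, Sox10 and Myrf passed in neither.

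The spread between replicates was as wide as the response for several members. In Ctr-OPCs Myrf ran from 3.80 to 47.3 CPM and Sox10 from 177 to 642 CPM, with replicate 1 lowest and replicate 4 highest for both, and Dexa-treated OPCs kept that order with 3.77 to 51.1 CPM and 199.9 to 660 CPM. Sox9 and Nkx6-2 had the reverse pattern in part, with their highest Ctr value in replicate 1. Genes that followed the members most closely over the 11 libraries, by Pearson correlation of log2 CPM among 11362 protein-coding candidates, were Mycl and Galnt10 for Sox8 (r = 0.996 and 0.986), Brinp1 and Susd4 for Sox10 (r = 0.996 and 0.993), Mblac2 and Arsb for Myrf (r = 0.996 and 0.994) and Hmgb3 and Stmn1 for Sox9 (r = 0.985 and 0.980). Olig2 went with Tspyl1 and Chst10 (r = 0.981 for each), Nkx2-2 with Ctnnal1 and Dixdc1 (r = 0.964 and 0.961), Tcf7l2 with Gbf1 and Zscan22 (r = 0.958 and 0.952), Nkx6-2 with Timm8a1 and M6pr (r = 0.935 for each) and Olig1 with Stmn3 and Cib2 (r = 0.911 and 0.872). These correlations were picked as the highest of many over libraries that share replicate numbers and treatments, and are descriptions.

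Genes that work with the members changed in both directions under IFN-γ, where 15.3% of all genes tested fell and 16.0% rose. Of 7 further Sox genes, Sox13 and Sox11 rose by 1.55 ± 0.13 and 1.09 ± 0.072 on the log2 scale, Sox5 and Sox4 fell by 0.76 and 0.47, and 3 did not pass. SOX5 and SOX13 are SoxD factors, and SOX4 and SOX11 are SoxC factors of immature cells, so each of these pairs split. Sox6, also a SoxD gene, had a mean of 655 CPM in Ctr-OPCs, against 79.7 for Sox5 and 5.27 for Sox13. It did not pass, at -0.14 ± 0.055 (edgeR adjusted p = 0.0712). Of 8 helix-loop-helix partners and inhibitors, 4 fell and none rose, among them the Notch effectors Hes5 and Hes1 by 0.51 and 0.49, and Tcf12, which encodes a dimer partner of OLIG proteins, by 0.24. The Hes5 call (edgeR adjusted p = 0.0491) was lost in DESeq2 with the block (0.101) and without replicate 1 (0.221, log2 fold change -0.26), and its pairs ran from -1.21 to 0.062. Hes1 was lost without replicate 1 (adjusted p = 0.0648). The list's median was -0.17. Of 8 other lineage regulators, 7 were tested, Zfp488, a differentiation factor that acts with OLIG2, fell by 0.84 ± 0.055 (edgeR adjusted p = 1.53e-06), Zfp536 rose by 1.05 ± 0.10 and 5 did not pass. Of 10 partners and paralogs of TCF7L2, 9 were tested: Tcf7 rose by 1.88 ± 0.15 and the deacetylase gene Hdac1 by 0.28, while Tcf7l1 fell by 0.84, the β-catenin gene Ctnnb1 by 0.26 and the remodeller gene Chd7 by 0.16. Chd7 passed narrowly (edgeR adjusted p = 0.0499) and was lost in DESeq2 with the block (0.0572) and without replicate 1 (0.164), and Tcf7l1 was lost without replicate 1 (0.122). Without the block, Sox13, Sox11, Sox5, Zfp536 and Tcf7 passed in edgeR, and the other genes named in these lists did not. Dexamethasone changed 0 of the 31 tested genes of these 4 lists in edgeR and DESeq2, with or without the block, and 2 had an unadjusted p under 0.05 in edgeR with the block.

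Of 18 genes that SOX10, MYRF and their partners switch on during differentiation, 16 were tested, 7 fell, 1 rose and 8 did not pass, beside 15.3% lower and 16.0% higher among all genes tested. The list had a median log2 fold change of -0.50 against -0.012 over all genes. Gpr17, a receptor of committed precursors, measured 448, 1778, 4160 and 4831 CPM in Ctr-OPCs and 64.0, 471, 1301 and 1191 CPM in IFN-γ-treated OPCs. It fell in 4 of 4 pairs, with a fitted log2 fold change of -2.09 ± 0.16 (edgeR adjusted p = 4.30e-06). Enpp6 fell by 2.83 ± 0.88, Bcas1 by 1.03 ± 0.14, Itpr2 by 0.99 ± 0.14 and the myelin enzyme gene Cnp by 0.65 ± 0.092, and Aspa, an enzyme gene of mature oligodendrocytes near 1 CPM, rose by 1.03 ± 0.28. The pairs of Enpp6 were -0.20, -0.44, -4.48 and -6.36, so that replicates 3 and 4 carried its change, and its call (edgeR adjusted p = 0.0335) was lost in DESeq2 with the block (0.100). The structural myelin gene Mbp was not called against Ctr-OPCs and was called lower against Dexa-treated OPCs, at -0.94 ± 0.27 (edgeR adjusted p = 0.0233, but 0.505 without the replicate block and 0.0612 without replicate 1). The summed CPM of the list was 1078, 3027, 6309 and 7653 in Ctr-OPC replicates 1 to 4, in the same order as Myrf and Sox10, and 542, 1324, 2394 and 2253 in IFN-γ-treated OPCs. In every Ctr library Gpr17 was the largest part of this sum, so its order is mainly that of Gpr17. Bcas1, Cnp and Itpr2 also ran in that order in Ctr-OPCs. Mbp, at 14.6, 55.8, 37.1 and 51.9 CPM, and Trf, at 47.4, 24.0, 9.97 and 19.5 CPM, did not. Of 6 OPC markers, 5 were called lower and none higher, with a median of -0.60: C1ql1 by 2.34 ± 0.15, Lhfpl3 by 0.73, Pdgfra by 0.61, Cspg4 by 0.60 and Vcan by 0.37. The marker that was not called, Ptprz1, went the other way in every pair. It measured 1632, 1660, 1981 and 1893 CPM in Ctr-OPC replicates 1 to 4 and 1740, 1750, 2187 and 2695 CPM in IFN-γ-treated OPCs. Under dexamethasone Trf, a target gene for iron transport, rose by 0.82 ± 0.17, and Cspg4 rose by 0.65 ± 0.087, with no gene of these 2 lists lower. The Trf call (edgeR adjusted p = 0.0417) was lost without replicate 1 (0.166), and that of Cspg4 was not (0.0201). Without the block none of the called genes named from these 2 lists passed in edgeR in either comparison with Ctr-OPCs, while Enpp6, Itpr2 and C1ql1 passed in DESeq2 for IFN-γ.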

How the data were processed

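Per the labels and the study's methods, the authors quantified each library with Salmon 0.8.2 on a GRCm38 transcriptome, and deposited an estimated count and a TPM value per transcript. The strand setting is not given in the sources used here. Their 3 DESeq2 tables of fold changes and p-values were not used. The members and lists were chosen with earlier results of these data known.

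Estimated counts were summed per gene over GENCODE M21 transcripts and rounded. The 17919 genes that reached 10 counts in 4 or more of the 11 complete libraries were tested with edgeR 4.0.16 in R 4.3.3: TMM scaling, all groups in one quasi-likelihood fit, the replicate number as a block, and Benjamini-Hochberg adjustment over all genes tested, called at 0.05. The study itself used DESeq2 here. The block was used here because libraries of one number come from cultures that deviated together: deviations from the group means correlated at 0.414 to 0.746 between libraries of the same number, against -0.646 to 0.526 between different numbers. What a number stands for beyond a litter is not given in the labels. CPM values use the TMM-scaled library sizes, and TPM served to compare genes within a library. The SE of a fold change is its size over the square root of the quasi-likelihood F statistic.

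Alternatives were DESeq2 1.42.0 and edgeR with and without the block, limma 3.58.1 on log2(TPM + 0.1), other scalings and filters, only the groups compared, and each library left out. Fits without replicate 1, on replicates 3 and 4 alone, and on all 12 libraries over the genes listed whole in the incomplete table were added after seeing the data. The scripts were tested on simulated counts. No 2 libraries of a group agreed within sampling noise (chi-square per degree of freedom 23.6 to 229). All 9 members were named, and of each list those called, at most 6 by size of change. A few genes that were not called are named beside them. Some single genes of these lists are not reported here. PCR copies were not told apart from molecules.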

Additional observations from a re-analysis of the deposited data

How the results depend on the processing

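The pairing by replicate number mattered most. With no replicate block, edgeR called 1513 genes and 1 member for IFN-γ against Ctr-OPCs, 22 genes for dexamethasone against Ctr-OPCs, and 1571 genes and 0 members for IFN-γ against Dexa, and DESeq2 called 2302 genes and 1 member, 98 genes, and 2345 genes and 1 member. Against the 282 genes called for dexamethasone, DESeq2 with the block called 460, no filter on low counts 642, only the groups compared 1569 with 2 members, limma on log2 TPM 126, and replicates 3 and 4 alone 63. For IFN-γ against Ctr-OPCs, no filter gave 7 members, and for IFN-γ against Dexa, replicates 3 and 4 gave 2950 genes. Leaving out libraries gave 4099 to 5935, 78 to 393 and 4121 to 6122 genes, and 4 to 6, 0 and 4 to 6 members. The dexamethasone count fell by more than 1.5 times without Ctr replicate 1 (129), 2 (114) or 4 (125), without Dexa replicate 1 (101) or 2 (78), and without replicate 1 as a whole (131).

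Sox8, Sox9, Sox10 and Myrf kept their direction under IFN-γ, against Ctr-OPCs and against Dexa, in every alternative run. Other fold changes crossed 0, and the cause was not tested. Against Ctr-OPCs under IFN-γ, limma on log2 TPM gave 0.087 for Olig1, 0.0055 for Olig2 and 0.032 for Tcf7l2, replicates 3 and 4 gave 0.18 for Olig1 and -0.36 for Nkx6-2, and leaving out libraries gave -0.22 to 0.050 for Olig1. Under dexamethasone, no replicate block gave -0.056 for Olig2, -0.065 for Sox10 and -0.075 for Myrf in edgeR, and -0.056, -0.062 and -0.066 in DESeq2. Olig2 was -0.013 with no filter and -0.019 with only the groups compared, Myrf -0.038 in limma and Nkx6-2 0.068 in replicates 3 and 4. Leaving out libraries gave -0.013 to 0.069 for Olig2, -0.24 to 0.20 for Myrf and -0.68 to 0.17 for Nkx6-2. For IFN-γ against Dexa, Nkx2-2 was -0.054 in edgeR and -0.057 in DESeq2 with no block, -0.027 with total counts, -0.033 with only the groups compared, -0.49 in replicates 3 and 4 and -0.19 to 0.26 with libraries left out. Limma gave 0.0044 for Olig2 and 0.086 for Tcf7l2, replicates 3 and 4 gave -0.43 for Nkx6-2, and leaving out libraries gave -0.25 to 0.10 for Tcf7l2.

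Calls of other members that appeared under 1 library's omission were Tcf7l2 without Ctr or IFN-γ replicate 1 (adjusted p = 0.0243 and 0.00621 in edgeR), Nkx2-2 without IFN-γ replicate 1 (0.0295), and Olig2 without Dexa replicate 1, Ctr replicate 3 or IFN-γ replicate 3 (0.0480, 0.0180 and 0.0132), all for IFN-γ against Ctr-OPCs. For IFN-γ against Dexa they were Olig1 and Olig2 without Ctr replicate 3 or IFN-γ replicate 3, and Olig2 without Ctr replicate 1. Depth limits Nkx6-2, at 5 to 52 reads per library.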
